A study of Mus musculus with 10 samples.

Results

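IGHV1-50 is 1 of the heavy-chain V genes of the mouse IGHV1 (J558) family, and it was followed here through every antibody class in lymph nodes that drain a brain tumour. The data are bulk B cell receptor sequences from deep cervical nodes of 5 mice given anti-CTLA-4 antibody and 5 mice given isotype IgG, 1 library per mouse. All 10 were C57BL/6 wild-type mice, injected in the brain with GL261 cells, a mouse glioma line, and their nodes were taken on day 20. The labels give no age, sex, antibody clone, dose or schedule, and no group without a tumour was analysed, so both groups carried the glioma. The members were the productive heavy-chain sequences whose V call names IGHV1-50 and no other gene: 9331 of 313384 sequences, with 7821 of 276398 distinct rearrangements. A rearrangement here is a V gene, J gene and junction, the junction being the stretch that spans the joined V, D and J ends. The gene was selected on its share of IgG counts and its leading IgG clones in these same libraries, so its IgG values are a description and carry no test.

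A B cell assembles its heavy chain once, from 1 V, 1 D and 1 J segment, with bases trimmed and added at both joints. The cell and its progeny keep that junction, so cells that share V, J and junction within a mouse are usually relatives, called a lineage. Naive B cells make IgM and IgD, and an activated B cell can move the same V region to IgG, IgA or IgE by class switching. In germinal centres the V region also gathers point mutations, and a plasma cell transcribes its receptor genes far more than a resting B cell does. Shares of counts therefore weigh secreting cells, while shares of distinct rearrangements weigh each rearrangement once. In bulk RNA more cells of a lineage and more transcript per cell cannot be told apart.

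The germline V sequence that the deposited alignments use for IGHV1-50 has 294 bases. It is shown because the leading antibodies below are nearly all exact copies of it. The gene lies on chromosome 12, between Ighv8-5 and the pseudogene Ighv1-51, with Ighv1-49 and Ighv1-52 one place further out, in the RefSeq gene table of GRCm38.p6. The files name no genome build, so no coordinates are given. Capitals mark CDR1 (GYTFTSYW) and CDR2 (IDPSDSYT), 2 of the 3 loops that contact antigen.
IGHV1-50 germline V: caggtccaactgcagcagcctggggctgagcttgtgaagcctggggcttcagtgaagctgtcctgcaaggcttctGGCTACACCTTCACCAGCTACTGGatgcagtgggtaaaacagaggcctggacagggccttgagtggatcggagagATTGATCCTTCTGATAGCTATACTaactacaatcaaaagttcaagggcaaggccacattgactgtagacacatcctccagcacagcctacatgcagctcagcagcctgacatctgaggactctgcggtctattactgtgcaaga

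Over the first 285 bases, the closest of 104 other V genes in the files were IGHV1-69, with 8 differing bases, and IGHV1-59, with 9. IGHV1-74 differed at 15 bases, and IGHV1-52 and IGHV1-61 at 21 each. Calls were rarely shared with those relatives: 8 sequences with 8 counts named IGHV1-50 together with another gene.

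The third loop, CDR3, lies within the junction, and the junctions of the 5 lineages with most IgG counts are shown because they tell the large clones apart. The junction of the largest IgE carrier and that of the largest IgA lineage follow them, both chosen after their values were seen. Each line names the CDR3 amino acids, and capitals mark the bases that the deposited alignment gives to no V, D or J segment.
ARMGRAFDY, anti-CTLA-4 mouse 1, IGHJ2: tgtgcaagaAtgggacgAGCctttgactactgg
ARRGSSPFDY, isotype mouse 1, IGHJ2: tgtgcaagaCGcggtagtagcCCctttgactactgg
ARLYFDV, isotype mouse 1, IGHJ1: tgtgcaagatTgtacttcgatgtctgg
CYYGSSYR, anti-CTLA-4 mouse 2, IGHJ3: tgtTGttactacggtagtagctacAGGtgg
ARYGWSYYAMDY, anti-CTLA-4 mouse 3, IGHJ4: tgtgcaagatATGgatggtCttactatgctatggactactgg
ARSGRVAKYFDV, anti-CTLA-4 mouse 5, IGHJ1: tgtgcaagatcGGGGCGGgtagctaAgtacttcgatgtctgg
ARWNFPYAMDY, isotype mouse 1, IGHJ4: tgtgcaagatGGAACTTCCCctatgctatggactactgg
The 5 leading junctions run from 27 bases in ARLYFDV to 42 bases in ARYGWSYYAMDY. CYYGSSYR keeps only the first codon of the V end, tgt, and its middle, ttactacggtagtagctac, is assigned to IGHD1-1.

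Productive heavy chains had deposited counts of 159157 to 362445 per mouse, of which IGHV1-50 took 176064 over the 10 libraries. The sources do not say whether a count is a read or a molecule, and intervals below are exact 95% binomial ones. Beside a share of 0, the limit is 3 counts divided by the total. Both cover counting error only. The libraries shared rearrangements: 61 of the 7821 occurred in more than 1 mouse. Among the 28 rearrangements that reached 100 counts in some mouse, 15 were in several mice and 13 in 1. Of the other 46 shared ones, 29 lay within 1 treatment and 17 did not, and 19 of the 61 were tied between mice. In all 15 abundant ones, the mice that shared a rearrangement had the same treatment. In all 15, they also held consecutive replicate numbers, with the most counts at the lowest number and fewer at each next one. ARMGRAFDY had 104572, 3184, 377, 120 and 43 counts in anti-CTLA-4 mice 1 to 5 and none in isotype mice. ARRGSSPFDY had 24344, 849 and 13 counts in isotype mice 1 to 3, and ARSGDYYYYAMDY had 613 and 129 in isotype mice 3 and 4. Every shared rearrangement was assigned to the mouse with most counts, tied ones to each tied mouse, and the IgG shares are given as deposited too. The source of the shared sequences was not tested.

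**Figure D1:**
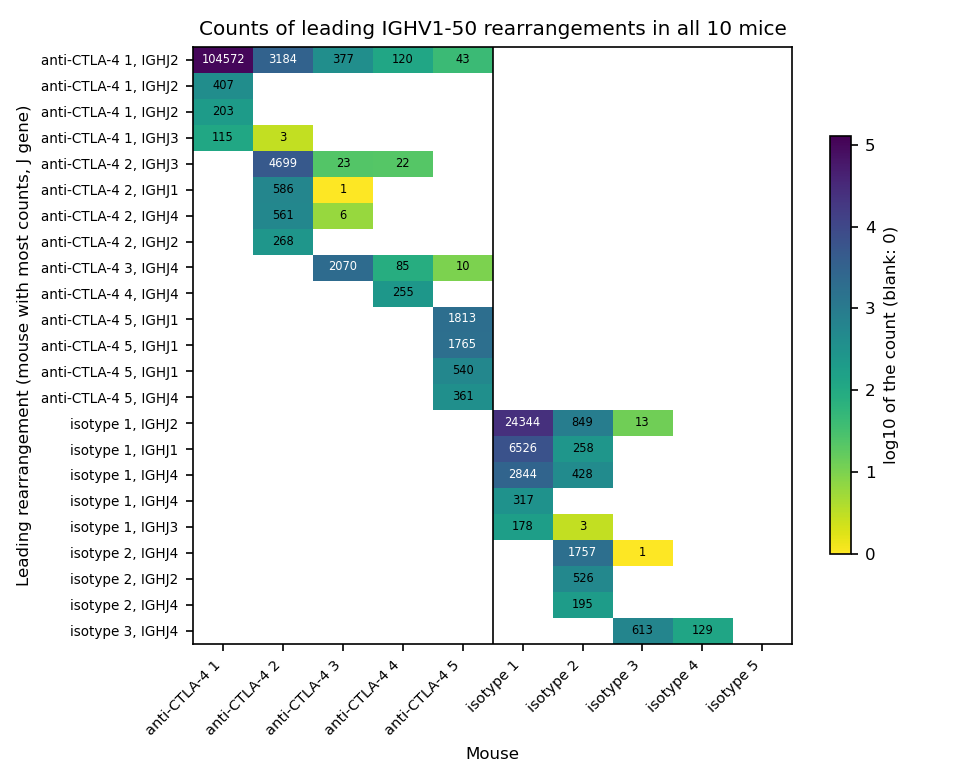
Counts of 23 leading IGHV1-50 rearrangements (rows, named by the mouse with most counts and the J gene) in each of the 10 mice (columns), anti-CTLA-4 left of the line, isotype right; colour is the log10 count and blank cells are 0. A rearrangement found in several mice stays on 1 side of the line and its counts drop with each step to the right, as in the top row with 104572, 3184, 377, 120 and 43 counts.

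In IgM, the class of naive cells, IGHV1-50 was an ordinary, much used gene with near-equal shares in all mice. It supplied 2.72%, 2.95%, 2.66%, 2.81% and 2.56% of IgM rearrangements in anti-CTLA-4 mice 1 to 5, against 2.90%, 2.79%, 2.63%, 2.63% and 3.08% in isotype mice 1 to 5. The 2 ranges overlapped, with means of 2.74% ± 0.149 after anti-CTLA-4 and 2.81% ± 0.191 with isotype (SD, n = 5 each). IgD gave 2.99% ± 0.188 after anti-CTLA-4 and 3.18% ± 0.346 with isotype. Over IgM and IgD together the gene ranked 11 of 108, at 2.83% ± 0.152 (SD, n = 10). The genes next to it in that order, IGHV1-69 at 2.88% ± 0.142 and IGHV1-81 at 2.61% ± 0.144, had ranges over mice that overlapped its range of 2.66% to 3.16%.

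The number of IgM and IgD rearrangements with IGHV1-50 did not pass the test between treatments. Its log2 fold change was -0.044 (SE 0.051), anti-CTLA-4 over isotype, with an adjusted p of 0.873 by edgeR's quasi-likelihood test over 95 V calls. In that test 1.05% of V calls passed an adjusted p of 0.05. The 1 call was IGHV12-3, lower after anti-CTLA-4 (log2 fold change -0.89, adjusted p = 0.0142 in the same edgeR fit), which is no member and was named for being the sole call. No V call passed with DESeq2, or with edgeR without anti-CTLA-4 mouse 5 or without isotype mouse 2, 3 or 5. None of the 46 IGHV1 family calls tested passed with edgeR. Before adjustment 3 of the 46 were under 0.05, beside 10 of all 95 V calls. DESeq2 had 8 V calls under 0.05 before adjustment. The family's median log2 fold change was -6.7e-05, beside -0.00073 over all 95.

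Among single V genes, the share of IGHV1-69 followed that of IGHV1-50 most closely over the 10 mice, with a Pearson correlation of 0.81 in IgM and IgD. IGHV1-59 came next at 0.64 and IGHV1-52 at 0.63. These are descriptions over shares that must sum to a whole within each library. The first 2 are also the closest genes in sequence.

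The IgM rearrangements of IGHV1-50 were close to germline in both groups. They carried 0.0769 ± 0.0247 V mismatches per 100 nucleotides after anti-CTLA-4 and 0.0569 ± 0.0149 with isotype (SD, n = 5 each). The difference of 0.0199 gave a two-sided exact permutation p of 0.206, or 0.413 adjusted over 2 measures. With the rearrangement of most counts per lineage kept alone, a choice made after the data were seen, it shrank to 0.0046 (exact permutation p = 0.508). Mean CDR3 length was 11.52 ± 0.0902 amino acids after anti-CTLA-4 and 11.50 ± 0.154 with isotype (exact permutation p = 0.786, also after adjustment). The smallest p that 5 against 5 mice allow is 0.00794.

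Set against all other single V genes of the same mice, IGHV1-50 in IgM had shorter CDR3s, fewer mismatches and another mix of J genes. CDR3s averaged 11.51 ± 0.120 amino acids in IGHV1-50 and 11.78 ± 0.0387 in the other genes (SD, n = 10), shorter by 0.274 ± 0.111 and shorter in 10 of 10 mice. V mismatches were 0.0669 ± 0.0219 per 100 nucleotides in IGHV1-50 and 0.0952 ± 0.0111 in the others, lower in 10 of 10 mice. The share of IgM rearrangements with no V mismatch was 84.6% ± 3.15 in IGHV1-50 and 82.8% ± 1.34 in the others, and higher in 8 of 10 mice. Isotype mouse 1 went the other way, with 79.3% in IGHV1-50 and 83.2% in the others. Anti-CTLA-4 mouse 3 was nearly level, at 82.05% in IGHV1-50 and 82.06% in the others. When 4 V genes in which most IgM rearrangements carry a mismatch were left out, after the data were seen, the other genes averaged 0.0842. The difference then went to -0.0173, against -0.0283 with all genes, and it was negative in 7 of 10 mice (exact sign-flip permutation p = 0.0156).

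IGHJ2 joined 35.5% ± 2.52 of IGHV1-50 IgM rearrangements and 31.9% ± 0.438 of the others. IGHJ3 joined 27.7% ± 1.80 of IGHV1-50 rearrangements and 24.5% ± 0.418 of the others. The other two J genes were used less: IGHJ4 joined 23.6% ± 2.57 and IGHJ1 13.2% ± 1.10 of IGHV1-50 rearrangements, against 27.9% ± 0.321 and 15.7% ± 0.282 of the others (SD, n = 10). Against the other IGHV1 family genes alone, the difference was -1.44 points for IGHJ1, where it was -2.46 with all genes, and 2.28 points for IGHJ2, where it was 3.62. Among rearrangements with a count of at least 2 it was -4.26 points for IGHJ1. Each of the 4 J genes differed in 1 direction in 10 of 10 mice. All 6 comparisons with the other genes gave a two-sided exact sign-flip permutation p of 0.00195, the smallest that 10 mice allow, and the same value after adjustment over the 6. The 4 J shares sum to a whole within each mouse, so the 6 are not independent. No other V gene was set against the pooled rest, so whether these differences are particular to IGHV1-50 was not tested. In these 6 measures, set against all other single V genes, IGHV1-50 stood on the same side in anti-CTLA-4 and isotype mice.

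**Figure D2:**
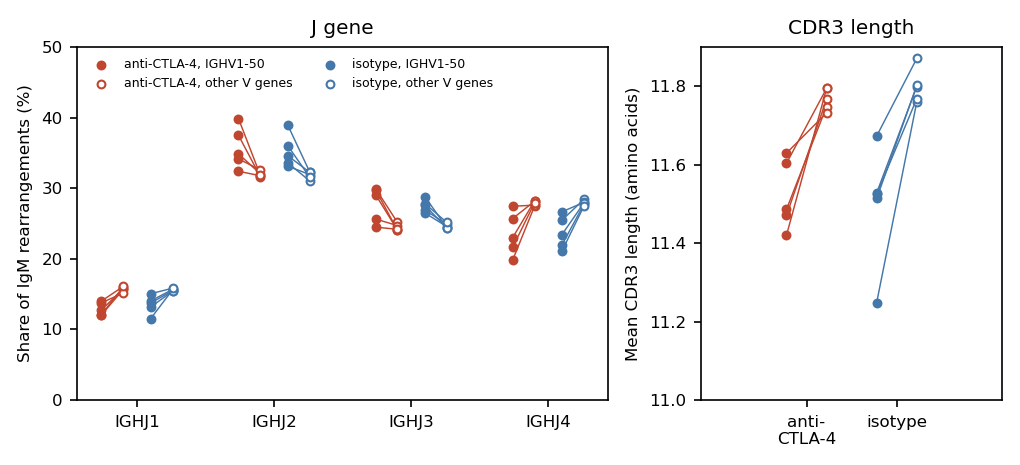
IgM rearrangements of IGHV1-50 (filled) and of all other single V genes (open) in each mouse, joined by a line, anti-CTLA-4 mice left of isotype mice. The left panel gives the share of each J gene in percent, and the right panel mean CDR3 length in amino acids on an axis that starts at 11. IGHJ2 and IGHJ3 are higher and IGHJ1, IGHJ4 and CDR3 length lower in IGHV1-50 in 10 of 10 mice.

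In IgG the even picture gave way to 2 extreme mice, 1 per treatment. IGHV1-50 held 36.8%, 5.93%, 0.909%, 0.0150% and 1.37% of IgG counts in anti-CTLA-4 mice 1 to 5, against 27.3%, 0.790%, 1.10%, 0.0173% and 0.171% in isotype mice 1 to 5. It was the top V gene of IgG in mouse 1 of each group, ranked 3 in anti-CTLA-4 mouse 2 (rank 2 as deposited), and lay between ranks 9 and 42 in the other mice. The means of 9.01% ± 15.72 after anti-CTLA-4 and 5.87% ± 11.98 with isotype (SD, n = 5 each) thus each rest on 1 mouse. Their difference of 3.14 points became -3.81 without anti-CTLA-4 mouse 1 and 8.49 without isotype mouse 1.

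Depth differed beneath these shares. Anti-CTLA-4 mouse 1 had 106174 IGHV1-50 counts among 288241 IgG counts (95% interval 36.7% to 37.0%). Anti-CTLA-4 mouse 4 had 2 among 13321, and isotype mouse 4 had 1 among 5786 (0.000438% to 0.0963%). As deposited, with no assignment, the shares were 36.8%, 8.54%, 1.08%, 1.23% and 1.42% in anti-CTLA-4 mice 1 to 5, against 27.3%, 1.82%, 1.11%, 0.541% and 0.171% in isotype mice 1 to 5. In anti-CTLA-4 mouse 4 and isotype mouse 4, 99.1% and 99.2% of the IGHV1-50 IgG counts lay on rearrangements more abundant in another mouse. Counted by distinct rearrangements, IGHV1-50 made up 6.13%, 3.99%, 1.17%, 0.513% and 2.28% of IgG in anti-CTLA-4 mice 1 to 5, against 8.93%, 1.60%, 1.21%, 0.855% and 2.52% in isotype mice 1 to 5.

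**Figure D3:**
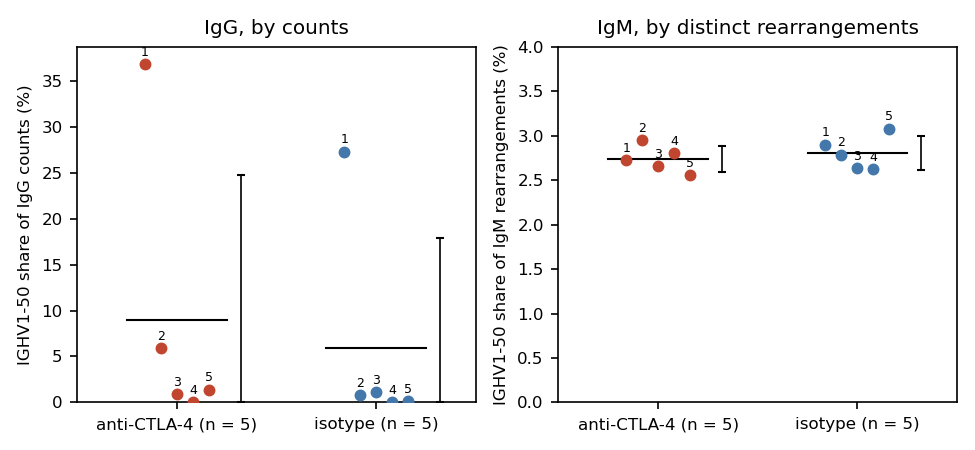
IGHV1-50 share of IgG counts (left, %) and of distinct IgM rearrangements (right, %) per mouse, with replicate numbers, anti-CTLA-4 left of isotype; lines are means and bars 1 SD, cut at 0 below (n = 5 each). Mouse 1 of each group stands at 36.8% and 27.3% of IgG, while all 10 mice lie between 2.56% and 3.08% in IgM.

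Other IGHV1 genes held large shares of IgG counts in other mice. IGHV1-49, a neighbour that differs from IGHV1-50 at 68 of the 285 compared bases, held 0%, 3.84%, 22.7%, 0.0375% and 0.00210% of IgG counts in anti-CTLA-4 mice 1 to 5. As deposited it held 6.95% in anti-CTLA-4 mouse 4. In isotype mice it held 0.00326% in mouse 2 and no count in the others. IGHV1-9 reached 39.0% in anti-CTLA-4 mouse 5 and at most 4.86% in the other four anti-CTLA-4 mice, against at most 1.32% in isotype mice. Both genes were named for their leading IgG clones in these same libraries, so their high shares are a selection. Anti-CTLA-4 mouse 2 held IGHV1-50 at 5.93% beside its 3.84% of IGHV1-49.

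Few lineages carried the IgG of IGHV1-50. Of its 7288 lineages, 58 held any IgG count: 12, 13, 5, 1 and 6 in anti-CTLA-4 mice 1 to 5, against 7, 6, 4, 1 and 3 in isotype mice 1 to 5. IgG was the smaller class over all V genes too, with 117 to 776 rearrangements per mouse beside 14666 to 30139 of IgM. IGHV1-50 had 1 to 32 IgG rearrangements per mouse beside 390 to 840 of IgM. The 16 lineages with at least 100 IgG counts, 11 in anti-CTLA-4 mice and 5 in isotype mice, held 99.8% of all IGHV1-50 IgG counts. The smallest of these had 203 and 196 IgG counts, and the next lineages below the limit had 95, 47 and 23. Neither the limit nor the lineage numbers were scaled to IgG depth. That depth was 13321 to 288241 counts in anti-CTLA-4 mice and 5786 to 91930 in isotype mice. The 11 and 5 are therefore no comparison of treatments. In 15 of the 16 the most abundant sequence had no V mismatch at all. IgM copies were found in 13, with as little as 1 IgM count in CYYGSSYR. Leading IgG lineages of other V genes were not examined, so whether these traits are particular to IGHV1-50 was not tested. Their CDR3s ran from 7 to 18 amino acids with a median of 10. They used IGHJ4 in 6 cases, IGHJ2 in 5, IGHJ1 in 4 and IGHJ3 in 1.

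The largest, ARMGRAFDY in anti-CTLA-4 mouse 1, had 105542 IgG counts and by itself made up 36.6% of all IgG counts of that mouse. IgG2a/c, the subclass driven by type 1 responses in mice, took 57.5% of them and IgG2b 37.5%. IgG3 took 3.36% and IgG1, the subclass tied to interleukin-4 in mice, 1.62%. Only 378 of the lineage's 106047 counts were IgM. Its IgG counts were 94.1% free of V mismatches.

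ARRGSSPFDY in isotype mouse 1 had 16523 IgG counts, 19.4% of that mouse's IgG, with a subclass mix much like that of ARMGRAFDY: 62.7% IgG2a/c, 32.9% IgG2b, 2.76% IgG3 and 1.48% IgG1. It differed in its IgM, which was 8118 of 24664 counts, or 32.9%. Those 8118 counts sat among 9401 IGHV1-50 IgM counts in the mouse, whose IGHV1-50 share of IgM counts was 20.9%. The other isotype mice had 2.30% to 2.99%, and anti-CTLA-4 mice 1.62% to 2.79%. By rearrangements the same mouse had the 2.90% given above.

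ARLYFDV, also in isotype mouse 1, had 6497 IgG counts, 7.65% of the mouse's IgG, split nearly evenly into 48.1% IgG2b and 47.7% IgG2a/c. It has the shortest CDR3 of the 16, with 1 unassigned base. ARRGSSPFDY and ARLYFDV together with 5 smaller lineages formed the IGHV1-50 IgG of isotype mouse 1. In anti-CTLA-4 mouse 1, ARMGRAFDY alone was 99.4% of it.

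The other two leading lineages, both of anti-CTLA-4 mice, had other subclass mixes. CYYGSSYR in mouse 2 had 4835 IgG counts, of which 93.8% were IgG1, 6.06% IgG2b and 0.0620% IgG2a/c. ARYGWSYYAMDY in mouse 3 had 2068 IgG counts, spread over IgG2a/c at 42.8%, IgG1 at 35.6% and IgG2b at 21.1%. With 1 and 3 IgM counts, both were nearly all IgG.

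Over the 16 lineages IgG2a/c was the largest subclass in 10, IgG1 in 3, IgG2b in 2 and IgG3 in 1. ARYYGSSFDV in anti-CTLA-4 mouse 5 was the IgG3 case, with 503 of 522 IgG counts. It made IGHV1-50 29.5% of that mouse's 1727 IgG3 counts (26.5% as deposited). IgG1 came first in CYYGSSYR, in ARNYDYLDY (60.4% of 255 IgG counts) and in an IGHJ4 lineage with a CDR3 of 18 amino acids (93.2% of 236). All 3 were in anti-CTLA-4 mouse 2, where ASPLHGYEEWYFDV was instead led by IgG2b (50.3% of 465). Over all V genes, that mouse had 77894 IgG1 counts among 98654 IgG counts. Anti-CTLA-4 mouse 1 had 133175 counts of IgG2a/c and 94767 of IgG2b among 288241, ARMGRAFDY included. Isotype mouse 1 had 24860 and 33825 among 84953. The lineages were not tested against these mixes, and subclass was not compared between treatments. In isotype mice 2 and 3 the leading IgG lineages were ARFVWAMDY with 521 counts and ARSGDYYYYAMDY with 607, both with IgG2a/c as the largest subclass (42.4% and 74.3%). The remaining mice had next to none: the leading lineage had 2 IgG counts in anti-CTLA-4 mouse 4 (ARSGGNYFAY), 9 in isotype mouse 5 and 1 in isotype mouse 4.

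**Figure D4:**
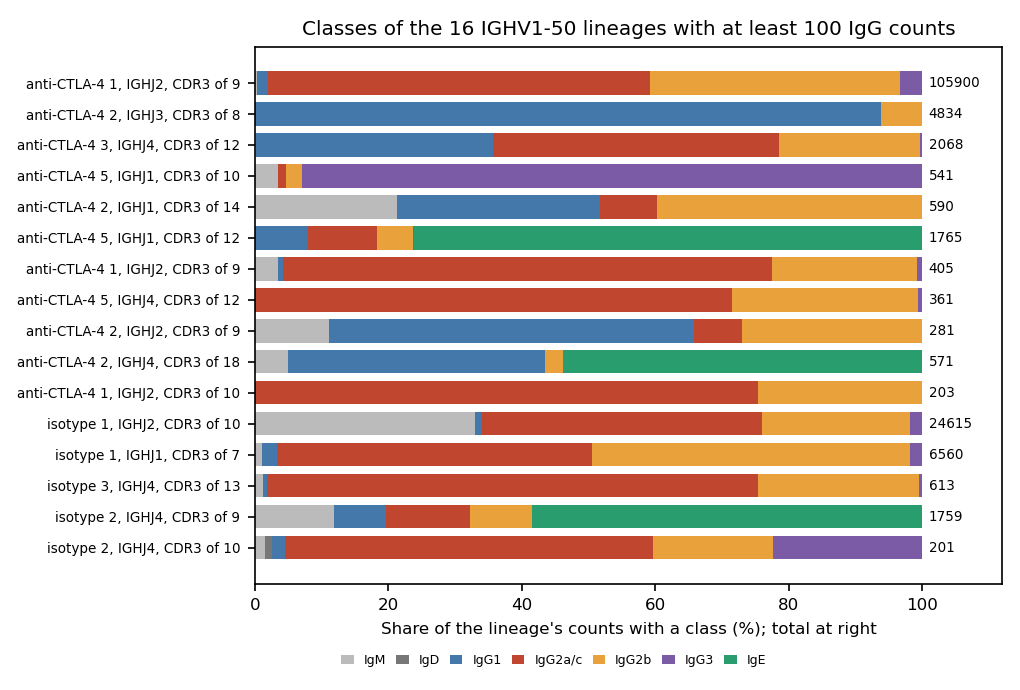
Share of each class and IgG subclass (%, colours) in the counts of the 16 IGHV1-50 lineages with at least 100 IgG counts, 1 bar per lineage named by mouse, J gene and CDR3 length, anti-CTLA-4 mice above isotype mice, with the counts that have a class at the right. IgG2a/c and IgG2b fill most bars, IgG1 fills the second, IgG3 the fourth, IgM 32.9% of the top isotype bar, and IgE the larger part of 3 bars.

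IgE, the class of allergic and worm responses, came from 3 of the same lineages, chosen here after their values were seen. ARSGRVAKYFDV in anti-CTLA-4 mouse 5 had 1345 IgE counts beside 421 IgG counts, 76.1% of the lineage. The IGHJ4 lineage with the CDR3 of 18 amino acids in anti-CTLA-4 mouse 2 had 307 IgE counts, 53.8% of its total. ARFVWAMDY in isotype mouse 2 had 1029 IgE counts, 58.5% of its total, which made IGHV1-50 42.8% of the 2403 IgE counts of that mouse. In anti-CTLA-4 mouse 5 the gene held 11.6% of 11632 IgE counts and in anti-CTLA-4 mouse 2 1.27% of 24318. Anti-CTLA-4 mouse 1 had 22 IgE counts in all, 6 of them IGHV1-50, and anti-CTLA-4 mouse 4 had no IgE count of any V gene. Isotype mice 1, 3, 4 and 5 and anti-CTLA-4 mouse 3 had no IGHV1-50 IgE count. For isotype mouse 3, with 64275 IgE counts, that allows a share of up to 0.00467%, and for anti-CTLA-4 mouse 3, with 341, up to 0.880%.

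ARSGRVAKYFDV was also the 1 lineage of the 16 whose most abundant sequence was mutated. The change G46A, which turns alanine to threonine as A16T in framework 1, was on 1201 of its 1345 IgE counts and on none of its IgG counts. Positions are counted from 1 at the first base of the V sequence printed above, and protein positions from its first codon. Of its IgG counts 77.7% had no V mismatch, against 10.6% of its IgE counts. In ARFVWAMDY 90.4% of IgE counts were unmutated, and the silent pair C66T and C168T was on 95 IgE counts and on no count of another class.

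IgA, the class of mucosal surfaces, was made by other IGHV1-50 lineages, none of which had IgG. ARWNFPYAMDY in isotype mouse 1 had 2845 IgA counts and ARRLTGTGYFDV in anti-CTLA-4 mouse 5 had 1723, with 90 of IgM. AQFDY in isotype mouse 2 had 526 and ARRRSTMDY in anti-CTLA-4 mouse 4 had 255. ARWNFPYAMDY was the most mutated of the large lineages. Its leading sequence had 4 changes that occurred on the same number of counts, 2043 of 2845: A88G (T30A, in CDR1), A155C (D52A, in CDR2), G189C (K63N) and G197A (G66D), the last 2 in framework 3. In the other three IgA lineages 98.0% to 99.6% of IgA counts had no V mismatch. IGHV1-50 thus held 0.0264%, 0.00125%, 0%, 0.241% and 2.56% of IgA counts in anti-CTLA-4 mice 1 to 5, against 2.42%, 0.948%, 0%, 0% and 0% in isotype mice 1 to 5. As deposited isotype mouse 2 had 1.63%. The zeros allow shares of up to 0.0121% in anti-CTLA-4 mouse 3, and up to 0.00230%, 0.00298% and 0.00314% in isotype mice 3, 4 and 5.

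Within the 5 leading IgG lineages the unmutated form outweighed every variant. In ARMGRAFDY the silent framework 2 change G150A was the most frequent, on 3690 counts or 3.48% of the lineage. Of these 2798 were IgG2a/c, 846 IgG2b, 39 IgG1, 2 IgG3 and none IgM. In CYYGSSYR the silent change G246A in framework 3 was on 103 counts, 99 of them IgG1 and 4 IgG2b. A junction change of that lineage, C21T counted from 1 at the first base of the junction, was on 105. In ARYGWSYYAMDY the change T191G (F64C, framework 3) was on 31 counts, 16 IgG1 and 15 IgG2a/c. The same variant thus stood on more than 1 subclass in ARMGRAFDY, CYYGSSYR and ARYGWSYYAMDY.

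Among lineages chosen for at least 100 IgG counts, IgM copies were more often mutated than IgG copies of the same lineage. That choice favours lineages with an abundant IgG sequence, so the contrast describes these lineages only. Of the 16 lineages, 9 had at least 10 IgM counts, and in 8 of these the share of counts with no V mismatch was lower in IgM than in IgG. In ARMGRAFDY it was 61.4% of IgM counts and 94.1% of IgG counts. In ARNYDYLDY it was 12.9% of 31 IgM counts and 95.3% of IgG counts, and in ARYYGSSFDV 0% of 19 IgM counts and 99.2% of IgG counts. ARRGSSPFDY, with the most IgM, was nearly level at 97.7% of IgM counts and 98.3% of IgG counts. ARLGPNFDY in anti-CTLA-4 mouse 1 was the exception, at 100% of 14 IgM counts and 99.7% of IgG counts. The medians over the 9 were 76.2% in IgM and 98.3% in IgG. The IgM counts outside ARRGSSPFDY were few, and the copies of 1 lineage are not independent, so no test was made.

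**Figure D5:**
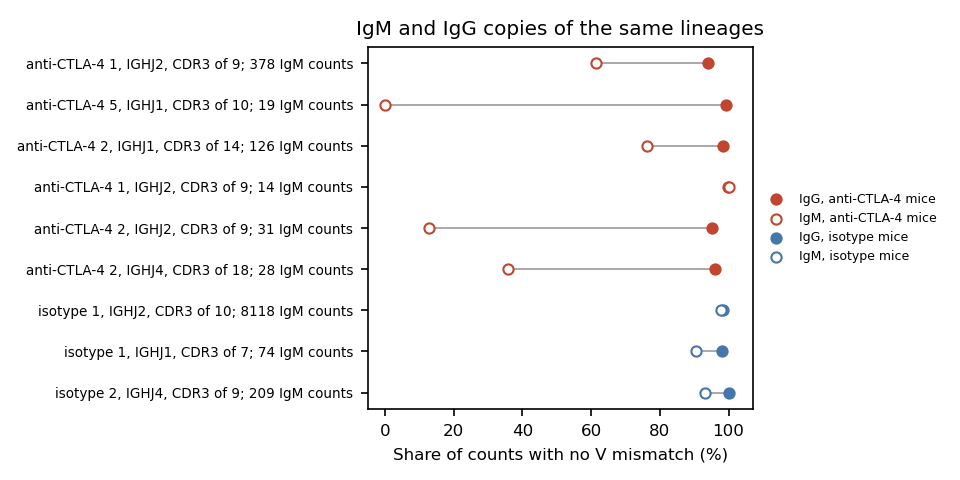
Share of counts with no V mismatch (%) among IgM copies (open) and IgG copies (filled) of the 9 lineages with at least 100 IgG and 10 IgM counts, anti-CTLA-4 mice above isotype mice, with IgM counts in the row names. The open point lies left of the filled one in 8 of 9 rows, farthest at 0% against 99.2%.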

How the data were processed

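Receptor libraries were made with a commercial kit that adds molecular identifiers, per the labels' protocols. The authors deposited 1 AIRR table per mouse with a whole-number count per sequence, per the file headers; the sources used here name no aligner, germline set or use of the identifiers. Non-productive rows, rows with several V genes and, for mismatches, rows with under 200 aligned V bases were left out. Each rearrangement was assigned to the mouse with most counts, ties to each. Lineages joined junctions of 1 mouse, V, J and length at 90% identity. IgG2a and IgG2c were summed. IgM mismatches used the most counted sequence of each rearrangement, without gaps. Usage was tested with edgeR 4.0.16 (TMM, filterByExpr, R 4.3.3) on rearrangement numbers, with DESeq2 1.42.0 as an alternative, and per-mouse values by exact permutation tests (Python 3.11.15), Benjamini-Hochberg adjusted, at a threshold of 0.05. Tests were checked on simulated data. Each library is labelled as 1 mouse. The gene, the named-gene rule (the 3 V genes best correlated with it, IGHV1-49 and IGHV1-9 for IgG, the IGHV1 family, the 5 lineages with most IgG and each mouse's leading one) and the lineage limit of 100 were chosen with earlier results of these data known. Same-numbered mice did not deviate together (correlations -0.121, -0.0488, 0.155, 0.157 and 0.130), so replicate numbers were not taken as pairs.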

Additional observations from a re-analysis of the deposited data

Results flagged for a closer look

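IGHV1-50 shares of IgG and its subclasses chose the gene and were left out of this comparison. Among the other measures, a gap test within each group (Dixon's test at 95%) marked 4 values in 40 groups of 4 or 5 mice. This number is not set against chance, because the measures overlap and some marked values come from leading IgG lineages. Isotype mouse 1 stood apart with 20.9% of IgM counts, mostly from ARRGSSPFDY, which is also a leading IgG lineage, and the other isotype mice had at most 2.99%. In the same mouse the mean length of IGHV1-50 CDR3s in IgM differed from that of other V genes by -0.511 amino acids, beside -0.288 to -0.198 in the other isotype mice. Anti-CTLA-4 mouse 5 stood apart with 2.56% of IgA counts, from ARRLTGTGYFDV, where the other anti-CTLA-4 mice had at most 0.241%. Isotype mouse 2 stood apart with 42.8% of IgE counts, from ARFVWAMDY, which is also its leading IgG lineage. The other isotype mice had none, so any IGHV1-50 IgE count in mouse 2 would have been marked.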

How the results depend on the processing

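IGHV1-50 usage in IgM and IgD kept its negative sign and missed the threshold in all 19 alternatives, with log2 fold changes from -0.07 (lineages in place of rearrangements) to -0.01 (count of at least 2) and adjusted p from 0.610 to 0.995, the replicate block at -0.045 included. The number of V calls past the threshold went between 0 and 2: 1 had passed, 0 did with DESeq2, the replicate block, lineages, a count of at least 2, or without anti-CTLA-4 mouse 5 or isotype mouse 2, 3 or 5, and 2 did without anti-CTLA-4 mouse 1, 2 or 4. The IgM mismatch difference between treatments stayed positive and under no alternative passed (as a share with no mismatch it was -1.75 points, the same direction, leave-one-out 0.0110 to 0.0263, replicate block p = 0.25 by exact permutation). The CDR3 length difference turned to -0.0027 without anti-CTLA-4 mouse 5 and to -0.0381 without isotype mouse 1, in a leave-one-out range of -0.0381 to 0.0680, and did not pass (replicate block exact permutation p = 0.75). The 6 comparisons with other V genes kept direction and stayed past 0.05 in each alternative run, the largest adjusted p being 0.0293 (IGHJ2 against the other IGHV1 family genes). For the IgG share, which had no test, the difference of 3.14 points ranged from -3.81 to 8.49 with 1 mouse left out, and was 0.585 between medians, 3.64 as deposited and -0.204 by rearrangements. As deposited, IgG depth was lowest in isotype mouse 5, with 11093 IgG counts. The assignment step left 13321 of 18848 IgG counts in anti-CTLA-4 mouse 4. It left 5786 of 24025 in isotype mouse 4, the lowest IgG depth after assignment.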

Other observations

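The same low-level changes appeared in unrelated leading lineages of both treatments. G15T (Q5H) was on 508 counts of ARMGRAFDY and 23 of CYYGSSYR in anti-CTLA-4 mice, and on 86 counts of ARRGSSPFDY and 48 of ARLYFDV in an isotype mouse. G3T was likewise found in 4 of the 5 leading lineages, with 481 counts in all, but in none of 6029 IGHV1-50 IgM sequences outside them, while G15T was in 3 of those. G4T was in 4 of the 5 lineages, G24T, C19T and G92A (S31N) in 3 each, and G45T in 2. Of the 6029 IgM sequences, G92A was in 12, which ranked it 8 of 500 substitutions seen there. C19T was in 8 of them, G24T in 3, G4T in 2 and G45T in 0. Junction changes also recurred at matching places. The aspartate before the last junction residues was replaced in ARMGRAFGY (A26G, 608 counts) and in ARRGSSPFGY (A29G, 80 counts) and ARLYFGV (A20G, 24 counts). These changes were noticed in the data, and their origin was not tested.

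The germline-identical share of the leading lineages was high in both groups although 44 of 45 distinct IgM sequences of ARMGRAFDY and 65 of 77 of ARRGSSPFDY carried a V mismatch. Most distinct sequences of these lineages were variants with few counts: ARMGRAFDY held 379 sequences, of which 115 had no V mismatch, and the G150A variant alone was on 27 of them.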
